A study of Mus musculus with 31 samples.

Results

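The libraries described here are those of mouse cells under reprogramming that had been infected with the Tet1CD virus and kept with vitamin C (Vc), collected at day 8 and set against day 3. They are 4 of the 31 libraries of the series, 2 for each day, chosen by their titles. All 4 came from cells of the 129/OG2 strain in which OKSM (the factors Oct4, encoded by Pou5f1, Klf4, Sox2 and Myc) drove reprogramming. The factors, the virus, vitamin C and the strain were thus shared, and the day was the difference that the labels give. Anything else that the libraries of a day had in common cannot be told apart from the day. For comparison, Tet1CD cells kept with DMSO and Flag cells kept with Vc, again with 2 libraries at day 3 and 2 at day 8, were used, together with 2 libraries each of fibroblasts (MEF) and embryonic stem cells (ESC). The libraries of a group carry the numbers 0824 and 0826 (0822 and 0819 in ESC), whose meaning the labels do not explain, and nothing in the labels states that they came from separate cultures. P-values therefore measure the spread between libraries, which may be technical. The labels give neither the contents of Tet1CD nor the doses.

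When fibroblasts are reprogrammed, they lose mesenchymal features, gain epithelial features, and later switch on the endogenous pluripotency network around Nanog, Esrrb and Sall4. TET enzymes oxidise 5-methylcytosine in DNA, a step toward removal of methylation, and use iron and 2-oxoglutarate. Vitamin C is known to raise the activity of these and related dioxygenases and to improve mouse reprogramming.

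Levels are CPM (counts relative to the size of the library, with sizes scaled by TMM) and are given in the order 0824, 0826. Total counts of the 4 libraries were 5102771 and 4233404 at day 3 and 5357842 and 5408820 at day 8, so 3 counts over a group, the floor used for genes with no counts, came to 0.321 CPM at day 3 and 0.273 CPM at day 8. Such floors cover counting error only. Tet1 stood at 429 and 473 CPM at day 3 and at 184 and 251 CPM at day 8. All 4 libraries were above the Flag cells with Vc, where Tet1 lay at 5.55 and 11.96 CPM at day 3 and at 32.6 and 5.90 CPM at day 8. Both day 8 libraries were below both day 3 libraries, but the day change of Tet1 did not pass the test (log2 fold change -1.05 ± 0.52 SE, adjusted p = 0.523). Counts per gene sum the introduced and the endogenous transcripts. The introduced factors overlapped between the days: Pou5f1 stood at 1257 and 723 CPM at day 3 and 922 and 1141 CPM at day 8. Sox2 lay at 771 and 332 CPM and then at 460 and 587 CPM. Klf4 lay at 1157 and 481 CPM and then at 710 and 1020 CPM, and Myc at 1136 and 668 CPM and then at 885 and 1000 CPM. In each of these 4 genes the numbers ran in opposite directions, with 0824 lower and 0826 higher at day 8.

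The day 8 library 0824 stood apart by its macrophage transcripts. The summed level of 30 macrophage genes was 197 and 121 CPM at day 3 and 2667 and 119 CPM at day 8, a ratio of 22.4 between the day 8 libraries. In the 23 other reprogramming libraries the sum lay between 26.3 and 197 CPM, with a median of 48.4 CPM, and in MEF it was 4091 and 920.1 CPM. Lyz2, a macrophage lysozyme, stood at 29.0 and 6.66 CPM at day 3 and at 286 and 3.35 CPM at day 8. Csf1r, the receptor for the macrophage growth factor CSF1, stood at 3.89 and 3.81 CPM and then at 214 and 0.930 CPM. Cd68, a lysosomal glycoprotein of macrophages, stood at 29.2 and 19.98 CPM and then at 146 and 9.49 CPM. Only the day 8 library 0824 was high for these genes; the library 0826 of that day was below both day 3 libraries. None of the 30 genes had 0 counts in the day 8 library 0824, against 8 in 0826 and 5 and 10 at day 3. None of the 28 that could be tested was called between the days, although 26 had an unadjusted p under 0.05, against 1499 of all 14914 genes tested. In bulk RNA, more cells of a type and more RNA per cell cannot be told apart. Sums of 25 endothelial genes were close in all 4 libraries, at 240.0 and 273 CPM at day 3 and 218 and 286 CPM at day 8, and those of 19 lymphoid, mast cell and granulocyte genes lay between 0.238 and 10.1 CPM.

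**Figure D1:**
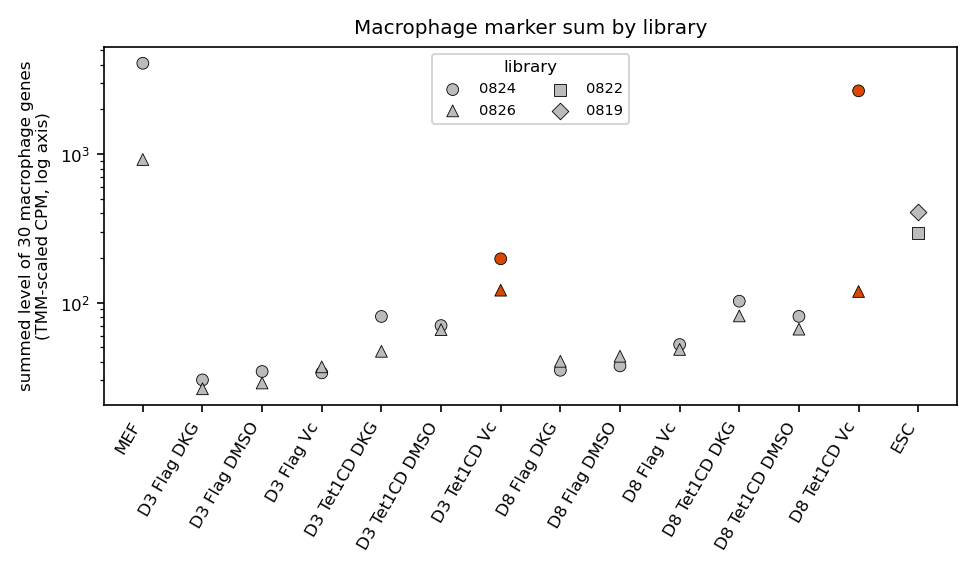
Summed level of 30 macrophage genes in each library (TMM-scaled CPM, log axis), with MEF, the 12 reprogramming groups and ESC along the x axis; each point is a library and the Tet1CD libraries with Vc are orange. The day 8 Tet1CD Vc library 0824 lies at 2667 CPM and its partner 0826 at 119 CPM.

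Between day 3 and day 8, a small set of genes passed the test (edgeR's quasi-likelihood test with Benjamini-Hochberg adjustment over 14914 genes, 2-sided, adjusted p under 0.05). Of all genes tested, 17 were higher (0.114%) and 7 lower (0.0469%) at day 8, and 1499 had an unadjusted p under 0.05. The higher genes included Spp1, Bhmt, Sall1, Enpp3, Mycn, Mdk and Igfbp2, and the lower ones Akr1c18, Epha1, P2ry1 and Plcg1. All 24 changed in the same direction with each day 8 library taken apart. They were called from these same libraries, which favours such agreement, so it is no separate support. The call of the whole set rested on the spread shared by all 28 libraries of the fit: with the 4 libraries alone, 0 genes were called by edgeR (1627 at an unadjusted p under 0.05). Without the day 8 library 0824 the count fell to 1, without 0826 it was 254, and without the day 3 libraries 0824 and 0826 it was 3 and 1.

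The promoters of 3 genes that rose and of the gene with the largest fall are shown with their CpG sites. Such sites are substrates of TET enzymes where methylated. They were taken from RefSeq (GRCm38.p6), run from 250 bases before to 50 after the gene start, are written 5′ to 3′ on the gene's strand, and carry every CpG in capitals (motif CG, which reads the same on both strands). Their places are chr5:104434861-104435160 on the plus strand for Spp1, chr13:93637709-93638008 on the minus strand for Bhmt, chr8:89044113-89044412 on the minus strand for Sall1 and chr13:4150597-4150896 on the minus strand for Akr1c18.
Spp1: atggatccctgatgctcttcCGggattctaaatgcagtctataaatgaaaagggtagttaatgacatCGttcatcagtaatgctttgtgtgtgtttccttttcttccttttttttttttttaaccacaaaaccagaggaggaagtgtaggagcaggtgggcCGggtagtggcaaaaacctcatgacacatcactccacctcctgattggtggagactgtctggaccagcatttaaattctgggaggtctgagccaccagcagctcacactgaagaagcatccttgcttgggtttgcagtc
Bhmt: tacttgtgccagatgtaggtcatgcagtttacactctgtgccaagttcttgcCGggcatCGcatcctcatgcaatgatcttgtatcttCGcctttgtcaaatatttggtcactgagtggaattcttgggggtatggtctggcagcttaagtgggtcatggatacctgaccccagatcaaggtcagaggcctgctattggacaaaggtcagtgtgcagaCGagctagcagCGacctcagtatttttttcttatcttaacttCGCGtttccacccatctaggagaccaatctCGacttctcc
Sall1: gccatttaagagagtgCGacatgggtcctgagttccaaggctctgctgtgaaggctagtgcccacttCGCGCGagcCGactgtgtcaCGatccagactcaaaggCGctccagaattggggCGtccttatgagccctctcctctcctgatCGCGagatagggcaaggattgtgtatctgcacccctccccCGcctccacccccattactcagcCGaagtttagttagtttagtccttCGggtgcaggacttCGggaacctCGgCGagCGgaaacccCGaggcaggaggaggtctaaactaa
Akr1c18: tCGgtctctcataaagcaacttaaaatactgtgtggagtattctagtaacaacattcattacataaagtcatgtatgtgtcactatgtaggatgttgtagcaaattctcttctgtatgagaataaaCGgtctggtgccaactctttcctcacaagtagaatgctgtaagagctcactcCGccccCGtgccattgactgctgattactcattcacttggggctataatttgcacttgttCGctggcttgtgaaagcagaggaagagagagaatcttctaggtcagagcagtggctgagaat
They hold 3, 8, 18 and 5 CpG, in that order. Over all 27025 promoters of the table the median was 7 (quartiles 3 and 20), so Bhmt and Sall1 lay above the median and Spp1 and Akr1c18 below it. At least 1 CpG was held by 94.2%, so holding CpG does not set these genes apart. Methylation was not measured in these libraries.

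Spp1 (osteopontin, a secreted phosphoprotein; ENSMUSG00000029304, chromosome 5, 104435118 to 104441050 in mm10) gave the smallest p. It stood at 38.9 and 37.3 CPM at day 3 and at 306 and 156 CPM at day 8. Both day 8 libraries were far above both day 3 libraries, and 0824 was the higher of them (log2 fold change 2.60 ± 0.27, adjusted p = 0.000323). Spp1 is also a product of macrophages, and the macrophage sum of these libraries is given above. The part of macrophage RNA in the Spp1 difference was not tested. With the day 8 library 0826 alone, Spp1 was the only gene called (log2 fold change 2.03, adjusted p = 0.00327). MEF (969 ± 245 CPM) and ESC (781 ± 131 CPM; mean ± SD, n = 2) both held more Spp1 than the day 8 cells.

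Bhmt, which remethylates homocysteine from betaine (ENSMUSG00000074768, chromosome 13, 93616675 to 93637961), had 0 counts in both day 3 libraries and 20.6 and 9.86 CPM at day 8, at least 47.5-fold higher than the floor over the day 3 group (adjusted p = 0.0177). It stood at 77.3 ± 37.3 CPM in ESC and at 0 counts in MEF. Sall1, a zinc finger transcription factor of the pluripotency list (ENSMUSG00000031665, chromosome 8, 89027235 to 89044162), stood at 6.997 and 1.67 CPM at day 3 and 48.8 and 31.8 CPM at day 8 (log2 fold change 3.18 ± 0.51, adjusted p = 0.0177). Mycn, a MYC family transcription factor, stood at 1.17 and 0.238 CPM and then at 32.7 and 12.5 CPM (4.90 ± 0.95, adjusted p = 0.045). In each of these genes both day 8 libraries were above both day 3 libraries, with 0824 the higher.

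Among secreted and surface proteins, Enpp3, an ectonucleotidase, stood at 7.77 and 3.57 CPM at day 3 and 135 and 74.1 CPM at day 8 (4.18 ± 0.68, adjusted p = 0.0193). Igfbp2, a binding protein of insulin-like growth factors, stood at 8.55 and 7.37 CPM and then at 100 and 47.6 CPM (3.21 ± 0.63, adjusted p = 0.0495). Mdk, the heparin-binding growth factor midkine, stood at 6.80 and 2.38 CPM and then at 44.3 and 30.9 CPM (3.01 ± 0.57, adjusted p = 0.0405). None of these overlapped between the days. In 4 of the 17 genes, Col18a1, a basement membrane collagen, Penk, the enkephalin precursor, Tmem45a and Ankrd33b, the day 8 library 0826 was above 0824. Col18a1 went from 26.04 and 21.9 CPM to 87.0 and 114 CPM (2.06 ± 0.35, adjusted p = 0.0226). Dsg2, a desmosomal cadherin, stood at 0.389 and 0.476 CPM and then at 15.0 and 6.70 CPM (4.58 ± 0.90, adjusted p = 0.0495). Rassf4, a RAS-association domain protein, differed most between the day 8 libraries, at 61.0 and 6.70 CPM against 2.14 and 1.19 CPM at day 3 (4.31 ± 0.83, adjusted p = 0.045). Of the other called genes that were higher, Olfm1, Rims2, Il17rd, Pdzd4 and Ankrd33b had log2 fold changes between 1.42 and 3.36. Il17rd, an antagonist of FGF signalling, had the smallest change and Rims2, a presynaptic scaffold, the largest.

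Akr1c18, a hydroxysteroid dehydrogenase that inactivates progesterone (ENSMUSG00000021214, chromosome 13, 4132615 to 4150654), had the largest fall. It stood at 165 and 229 CPM at day 3 and 29.5 and 20.1 CPM at day 8 (log2 fold change -2.99 ± 0.42, adjusted p = 0.00883), far above MEF and ESC (0.723 ± 0.414 and 0.782 ± 0.544 CPM) on both days. The log2 fold change of Akr1c18 was -3.40 ± 0.43 in Tet1CD cells with DMSO and -3.88 ± 0.43 in Flag cells with Vc. Akr1c18 and Bhmt belong to families with similar copies, so their counts are estimates. Epha1, an ephrin receptor, stood at 76.6 and 132 CPM and then at 16.4 and 21.6 CPM (-2.45 ± 0.42, adjusted p = 0.0226). P2ry1, an ADP receptor, stood at 26.8 and 34.5 CPM and then at 7.83 and 8.93 CPM (-1.87 ± 0.35, adjusted p = 0.0405). Both day 8 libraries were below both day 3 libraries in each. Plcg1, phospholipase C gamma 1, stood at 236 and 244 CPM and then at 126 and 125 CPM (-0.93 ± 0.14, adjusted p = 0.0135). Armcx4, Osbpl3, an oxysterol-binding protein, and Optn, an autophagy receptor, fell by 1.20, 1.08 and 1.07 on the log2 scale.

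**Figure D2:**
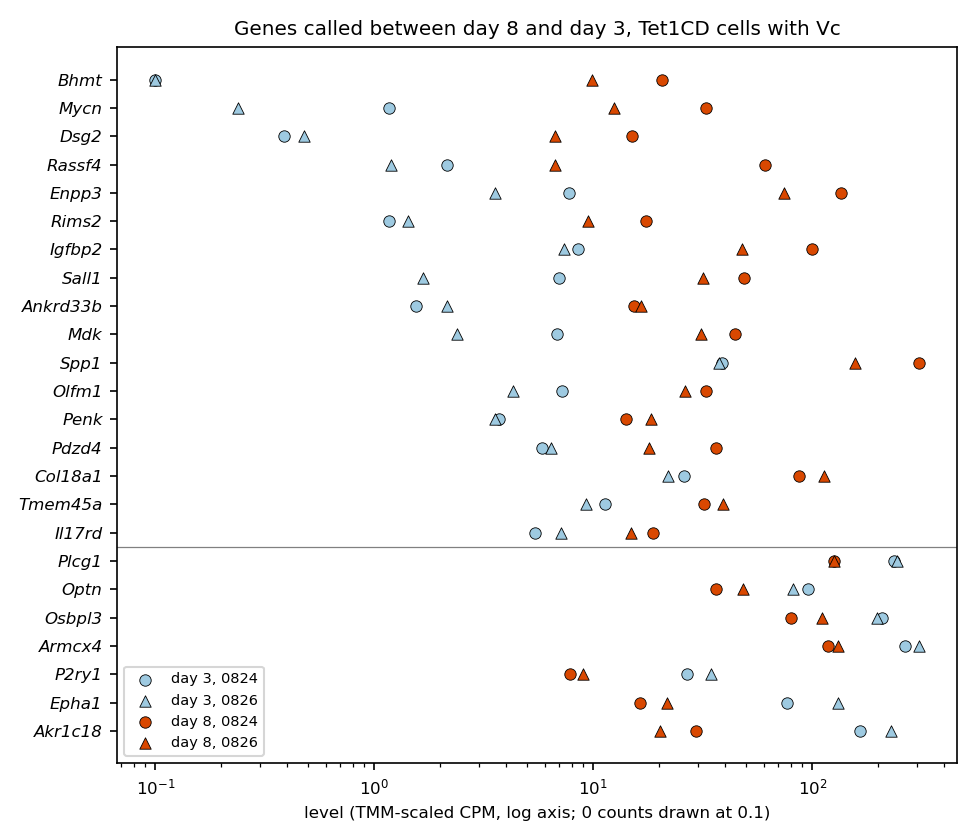
Level of the 24 called genes in each of the 4 Tet1CD libraries with Vc (TMM-scaled CPM, log axis, 0 counts drawn at 0.1), ordered by log2 fold change with the 17 higher genes above the line and the 7 lower genes under it. Blue points are day 3 and orange points day 8, circles 0824 and triangles 0826. The orange points lie on the same side of both blue points in every gene, which the call from these libraries favours. The orange points of Rassf4 are widely spaced (61.0 and 6.70 CPM).

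The direction in which ESC differ from MEF was used as a reference. The macrophage sum was 4091 and 920.1 CPM in MEF, and its part in this reference was not tested. Of the genes tested, 26.8% were higher and 25.7% lower in ESC than in MEF. Of the 17 genes that rose, 11 (64.7%) were higher in ESC and 3 (17.6%) lower, and of the 7 that fell, 0 were higher and 1 (14.3%) lower. Bhmt, Sall1, Mycn and Dsg2 belong to the 11 and Rassf4, Penk and Tmem45a to the 3. Enpp3, Ankrd33b, Olfm1 and Penk stood above both ESC and MEF in both day 8 libraries: Enpp3 reached 937% and 513% of the ESC mean of 14.4 CPM.

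Because few genes passed the test, the day change was also described within each number. It was taken as the log2 difference of day 8 from day 3 in 0824 and in 0826, with no test. Same-numbered libraries did not deviate together across days (correlation 0.113 between day 3 and day 8 of these cells). The match by number is therefore arbitrary, and these differences are not paired replicates. More than 2-fold higher within both numbers were 668 genes (4.48% of those tested), out of 1437 in 0824 and 1639 in 0826. More than 2-fold lower within both were 165 genes (1.11%), out of 613 and 796. These made up 46.5% and 40.8% of the higher genes of the numbers and 26.9% and 20.7% of the lower ones. Of the 668 genes, ESC held more than MEF of 46.6% and less of 9.28%, and of the 165 genes more of 9.09% and less of 41.8%.

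**Figure D3:**
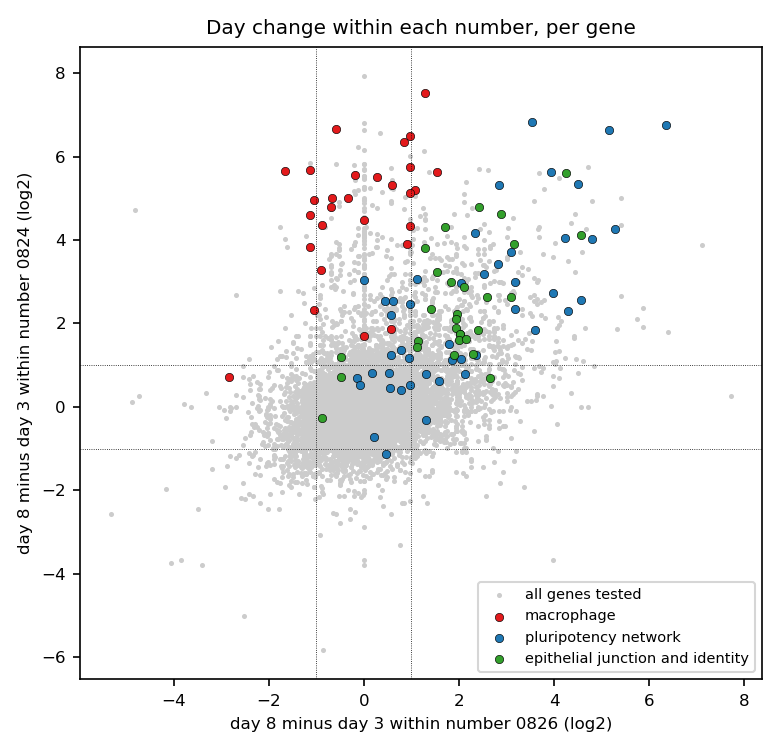
Log2 difference of day 8 from day 3 within number 0826 (x axis) and within 0824 (y axis), each point a gene, with dotted lines at 2-fold. The numbers did not pair libraries across days. Pluripotency and epithelial genes lie mostly in the upper right, where 26 of 47 and 24 of 28 exceed 2-fold within both numbers (4.48% of all genes tested). Macrophage genes lie high on the y axis around 0 on the x axis.

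The 37 gene lists were chosen with earlier results of these data known. That of the pluripotency network was the only one with called members. Of 47 tested, 3 passed (Spp1, Sall1 and Enpp3, all higher), against 0.114% of all genes tested. An unadjusted p under 0.05 was held by 31, all with higher levels at day 8, against 1007 higher of all 14914 genes tested. More than 2-fold higher within both numbers were 26, against 4.48% of all genes tested, and none were lower. Of the 3 called, Spp1 stood higher in MEF (969 CPM) than in ESC (781 CPM), and Enpp3 stood at 14.4 CPM in ESC, below both day 8 libraries. The median log2 fold change of the list was 2.33 (2.15 with 6 genes at 0 counts on day 3 set to their bound), against 0.02 over all genes tested. It was 3.01 with the day 8 library 0824 alone and 1.56 with 0826 alone. In Tet1CD cells with DMSO the list median was 1.35, and in Flag cells with Vc 1.78, each from its own libraries. Nanog, a core transcription factor, stood at 2.33 and 0.238 CPM at day 3 and at 44.1 and 17.1 CPM at day 8, which is 7.76% and 3.01% of its ESC mean (569 ± 71.9 CPM). Both day 8 libraries were above both day 3 libraries, but Nanog was not called (4.47 ± 1.24, adjusted p = 0.144).

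Members that had no counts at day 3 included Lin28a, an RNA-binding protein that blocks let-7, which reached 38.6 and 13.6 CPM at day 8 (at least 81.3-fold above the floor, adjusted p = 0.0808). Esrrb, a nuclear receptor of the naive network, reached 19.0 and 5.58 CPM (at least 38.4-fold, adjusted p = 0.11), 3.52% and 1.03% of the ESC mean. Neither passed the test, and in both the library 0824 was the higher. Tdgf1, a Nodal co-receptor, went from 0.389 and 0 CPM to 85.1 and 31.8 CPM (adjusted p = 0.0734). Sall4, a zinc finger factor, stood at 2.14 and 0 CPM and then at 48.2 and 14.9 CPM (adjusted p = 0.205). Dppa5a, an RNA-binding protein abundant in pluripotent cells, stood at 0.194 and 0 CPM and then at 23.3 and 8.56 CPM, no more than 2.07% of its ESC mean. The levels at day 8 thus spanned a wide range relative to ESC: over 39 genes of the list above 20 CPM in ESC, the median was 18.8% in 0824 and 10.1% in 0826. Utf1, a chromatin-associated factor, stood at 124% of its ESC mean in 0824 and 19.2% in 0826, Gdf3, a TGF-beta family ligand, at 80.7% and 78.2%, and Pecam1 at 1.01% and 1.05%. Tbx3 and Jam2, by contrast, were lower at day 8 than at day 3 in 0824 and higher in 0826.

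**Figure D4:**
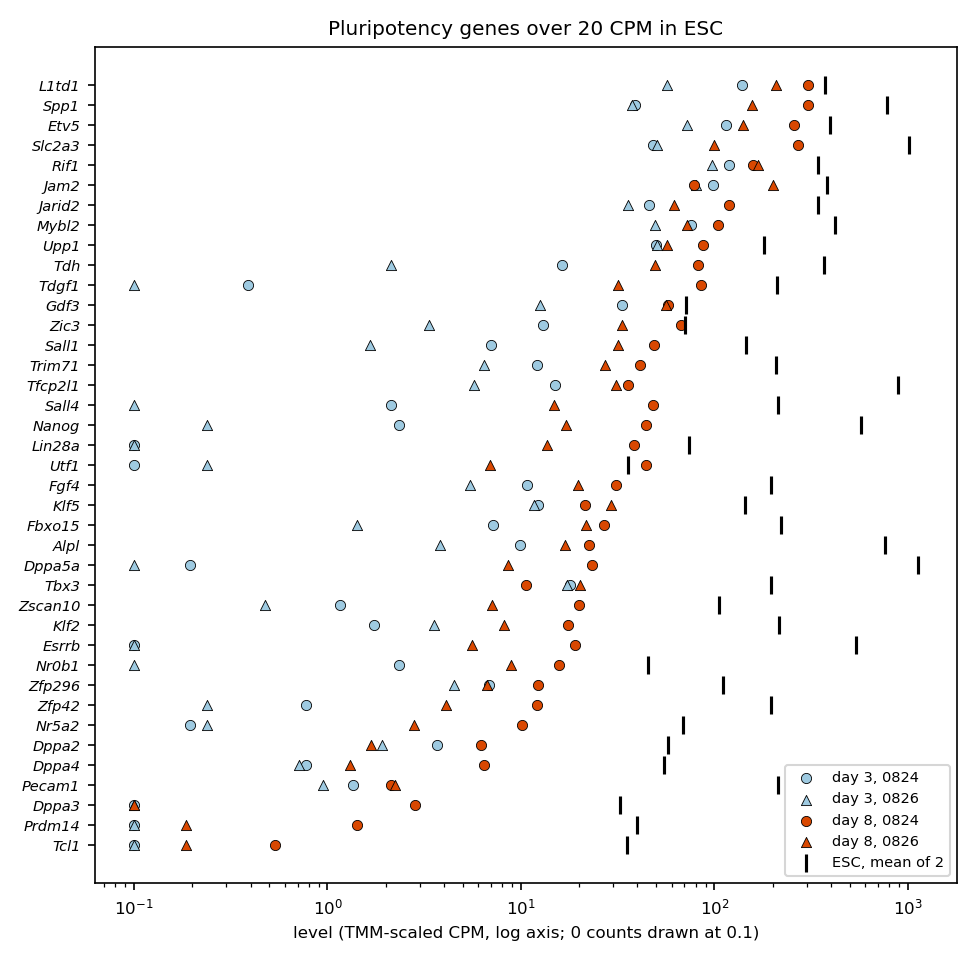
Levels of 39 pluripotency genes above 20 CPM in ESC (TMM-scaled CPM, log axis, 0 counts drawn at 0.1), ordered by the day 8 mean; blue points are day 3, orange points day 8, circles 0824, triangles 0826 and black bars the ESC mean of 2 libraries. Day 8 points mostly lie between the day 3 points and the ESC bar, and the 0824 circle mostly lies right of the 0826 triangle.

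Most epithelial genes were higher at day 8. The median day change of the list was also positive in Tet1CD cells with DMSO (log2 2.32) and in Flag cells with Vc (3.15). Of 28 junction and identity genes tested, 24 were more than 2-fold higher within both numbers, against 4.48% of all genes tested, and 0 lower. An unadjusted p under 0.05 was held by 22, all higher, against 1007 higher of all 14914 genes tested. Of the list, 0 were called (median log2 fold change 2.59, and 2.43 with 4 genes at their bound). Epcam, an epithelial adhesion molecule, stood at 4.67 and 0.951 CPM at day 3 and 87.9 and 31.5 CPM at day 8 (4.35 ± 0.89, adjusted p = 0.0604). Cdh1, E-cadherin, stood at 13.99 and 4.99 CPM and then at 89.5 and 31.8 CPM (2.65 ± 0.80, adjusted p = 0.181), below the ESC mean of 923 ± 653 CPM. Esrp1, an epithelial splicing regulator, had 0 counts at day 3 and 18.7 and 7.07 CPM at day 8, at least 40.1-fold above the floor (adjusted p = 0.0808). The day 8 libraries were above those of day 3 in all 3 genes. Dsp, a desmosomal plaque protein, was the exception below 0 within both numbers, at 139 and 128 CPM and then at 115 and 69.6 CPM (adjusted p = 0.921).

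No gene of stratified epithelium was called. Of 21 tested, 4 were more than 2-fold higher within both numbers, against 4.48% of all genes tested. Below 0 within both were 6, against 28% of all genes tested (median 0.75). Krt17, a stress keratin, stood at 1.56 and 0.238 CPM at day 3 and 24.2 and 8.19 CPM at day 8 (adjusted p = 0.268). Krt14, a basal keratin, stood at 38.9 and 42.1 CPM and then at 27.8 and 28.8 CPM (adjusted p = 0.885), with both day 8 libraries lower.

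No fibroblast gene was called. Of 30 tested, 0 were called and 0 had an unadjusted p under 0.05, and the median log2 fold change was -0.13. The day 8 libraries gave different medians, -0.79 with 0824 alone and 0.35 with 0826 alone. Col1a1, a chain of type I collagen, stood at 1044 and 1458 CPM at day 3 and 637 and 1296 CPM at day 8, overlapping between the days, against 14310 ± 704 CPM in MEF. Lum, a matrix proteoglycan, stood at 3.50 and 2.85 CPM at day 3 and 3.92 and 34.8 CPM at day 8, high only in 0826 (adjusted p = 0.567). S100a4, a fibroblast calcium-binding protein, stood at 307 and 558 CPM and then at 135 and 192 CPM, with both day 8 libraries lower (-1.40 ± 0.89, adjusted p = 0.673). Of 21 mesenchymal transcription factors 0 were called (median -0.25, with -0.82 in the day 8 library 0824 alone and 0.13 in 0826 alone) and 8 were below 0 within both numbers, against 28% of all genes tested, among them Snai2, at 7.39 and 14.7 CPM and then 3.74 and 6.33 CPM. Of 21 collagen modification genes, many of them dioxygenases that use vitamin C, 0 were called (median -0.20, with -0.51 in 0824 alone and -0.04 in 0826 alone). P3h1, a prolyl 3-hydroxylase, stood at 69.0 and 74.9 CPM and then at 53.7 and 51.9 CPM (adjusted p = 0.379).

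DNA methylation genes held a large difference in Dnmt3b, a de novo methyltransferase, which stood at 9.33 and 5.71 CPM at day 3 and 141 and 37.96 CPM at day 8 (3.56 ± 0.72, adjusted p = 0.0596). Both day 8 libraries were above both day 3 libraries, and 0824 reached 85.3% and 0826 23.0% of the ESC mean (165 ± 3.18 CPM). Dnmt3l, its catalytically inactive partner, stood at 0.389 and 0 CPM and then at 5.87 and 3.16 CPM (adjusted p = 0.241). Dnmt1, the maintenance methyltransferase, stood at 295 and 249 CPM and then at 315 and 259 CPM, overlapping between the days (0.08 ± 0.14). Tet2 stood at 69.6 and 30.2 CPM and then at 106 and 69.4 CPM, and Tet3 at 76.4 and 62.3 CPM and then at 79.2 and 73.0 CPM. Of 20 genes of this list 0 were called (median 0.17). Of 21 germline genes known to be silenced by methylation 0 were called (median 0.89, with 0.70 in 0824 alone and 0.43 in 0826 alone). More than 2-fold higher within both numbers were 3, against 4.48% of all genes tested. Tdrkh, a piRNA pathway protein, stood at 0.972 and 0.713 CPM and then at 4.63 and 2.23 CPM (adjusted p = 0.209), and Zfp42, also a pluripotency marker, at 0.777 and 0.238 CPM and then at 12.1 and 4.09 CPM (adjusted p = 0.0897).

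No proliferation gene was called between the days. Of 26 genes of G2 and mitosis, 0 were called and 0 had an unadjusted p under 0.05 (median -0.03, with 0.09 in 0824 alone and -0.19 in 0826 alone), and of 26 DNA replication genes 0 were called (median 0.27), with 19 above 0 within both numbers, against 28.8% of all genes tested. Mki67, a proliferation marker, stood at 466 and 463 CPM at day 3 and 517 and 527 CPM at day 8 (0.17 ± 0.15, adjusted p = 0.822). Pcna, the sliding clamp of replication, stood at 217 and 199 CPM and then at 314 and 332 CPM, with both day 8 libraries higher (0.63 ± 0.17, adjusted p = 0.126). Of 24 p53 targets and cell cycle inhibitors 0 were called (median -0.36), and 18 were below 0 within both numbers, against 28% of all genes tested. Cdkn1a, the inhibitor p21, stood at 703 and 740 CPM and then at 448 and 421 CPM, with both day 8 libraries lower (-0.73 ± 0.29, adjusted p = 0.358).

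Whether the day change differed from that without vitamin C or without Tet1CD was tested as an interaction. With no replicate term, 0 genes were called by edgeR against Tet1CD cells with DMSO (272 at an unadjusted p under 0.05; DESeq2 called 2) and 0 against Flag cells with Vc (773; DESeq2 called 37). Same-numbered libraries deviated together within a day, so the number was also taken as a block within each day. With this block, the day change was more positive than with DMSO in 6 genes (0.0402%) and more negative in 17 (0.114%). Against Flag cells with Vc it was more positive in 518 genes (3.47%) and more negative in 690 (4.63%). Without the day 8 library 0824 the 23 genes of the former became 6 and the 1208 of the latter 975, of which 322 were among the 518 and 456 among the 690; without 0826 the totals were 717 and 1520.

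Most proliferation genes differed from Flag cells in their day change. With the block, the day change was more positive in Tet1CD cells with Vc for 23 of 26 genes of G2 and mitosis and 22 of 26 replication genes, and for none more negative. Of all genes tested, 3.47% were more positive. Against Tet1CD cells with DMSO, the block called 0 of the mitosis genes and 1 of the replication genes more positive. Without the day 8 library 0824, 19 of the 23 and 15 of the 22 remained called. Top2a, a topoisomerase that untangles chromosomes, stood at 348 and 386 CPM at day 3 and 445 and 438 CPM at day 8 in Tet1CD cells with Vc. In Flag cells with Vc it stood at 493 and 483 CPM and then at 269 and 272 CPM, and in Tet1CD cells with DMSO at 385 and 381 CPM and then at 396 and 413 CPM. The day 8 libraries were thus lower than those of day 3 in Flag cells and higher in both Tet1CD cultures. The difference of the log2 changes from Flag cells was 1.12 ± 0.11 with the block (adjusted p = 2.5e-05) and did not pass with no block (adjusted p = 0.165). From the DMSO culture it was 0.18 ± 0.11 (adjusted p = 0.595 with the block). The mitotic motors Kif2c and Kif15 were called in the same direction, with differences of 1.42 ± 0.17 and 1.41 ± 0.17 (adjusted p = 0.00014 each, with the block), as were Bub1b, a spindle checkpoint kinase, and Hmgb2, a chromatin protein. The median day change of the mitosis list was -0.03 in Tet1CD cells with Vc, -0.36 with DMSO and -0.95 in Flag cells with Vc, each from its own libraries. Of 19 glycolysis genes 9 also had a more positive day change than in Flag cells, 6 of them without the library 0824 as well.

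The opposite sign was held by part of the genes of the fibroblast, stratified epithelium and p53 lists. Of all genes tested, 4.63% had a more negative day change than in Flag cells. Against Tet1CD cells with DMSO, the block called 0 genes of these lists more negative. The day change was more negative than in Flag cells with the block for 16 of 30 fibroblast genes, 7 of 21 genes of stratified epithelium and 8 of 24 p53 targets (1 was more positive), of which 10, 3 and 6 remained called without the day 8 library 0824. The genes described next, Msln, Gpr179 and P2rx7, were named by small p over all genes tested. They belong to neither the fibroblast nor the stratified epithelium list. Msln, the surface protein mesothelin, stood at 442 and 428 CPM at day 3 and 204 and 156 CPM at day 8 in Tet1CD cells with Vc. In Flag cells with Vc it stood at 130 and 174 CPM and then at 265 and 163 CPM (difference -1.76 ± 0.19 with the block, adjusted p = 2.83e-05; 0.377 with no block). Its day 3 libraries with Tet1CD and Vc were above all others of these cultures. Gpr179, an orphan receptor, stood at 164 and 80.9 CPM at day 3 and 155 and 118 CPM at day 8 in Tet1CD cells with Vc. It stood at 1.91 and 1.05 CPM and then at 28.6 and 16.2 CPM in Flag cells with Vc, and at 4.13 and 3.54 CPM and then at 45.0 and 25.2 CPM in Tet1CD cells with DMSO. Its day change was more negative than in either culture, with log2 differences of -3.71 ± 0.33 from Flag cells and -2.98 ± 0.27 from the DMSO culture (adjusted p = 7.42e-06 and 2.36e-05 with the block). P2rx7, an ATP-gated channel, had a difference of -2.22 ± 0.18 from Flag cells (adjusted p = 2.65e-06 with the block).

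**Figure D5:**
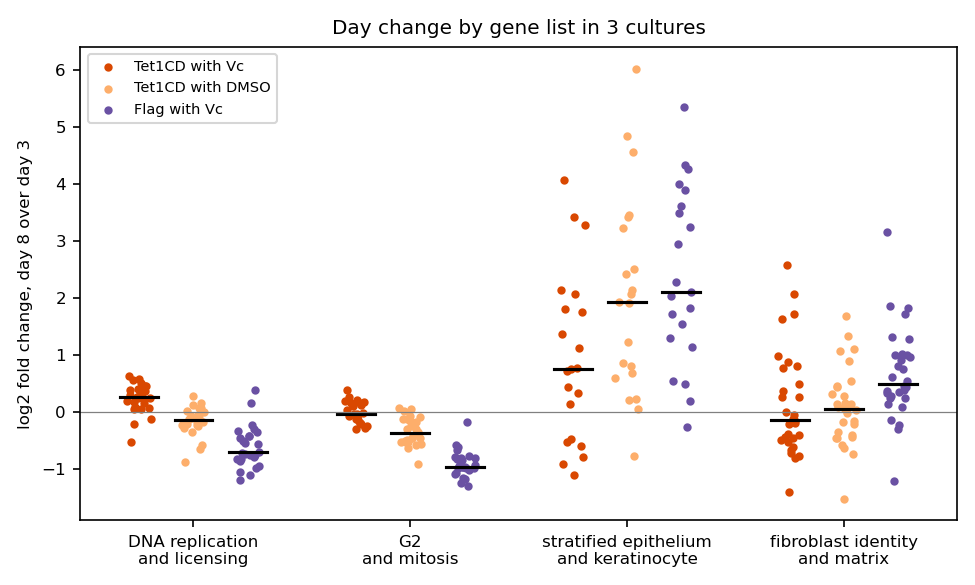
Log2 fold change of day 8 over day 3 for the genes of 4 lists in Tet1CD cells with Vc (dark orange), Tet1CD cells with DMSO (light orange) and Flag cells with Vc (purple); each point is a gene and the bar is the list median. The medians of the mitosis list are -0.03, -0.36 and -0.95, in that order.

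Against Tet1CD cells with DMSO, Spp1 was among the 6 genes with a more positive day change. In that culture it stood at 36.5 and 43.1 CPM at day 3 and 67.2 and 63.8 CPM at day 8, below both day 8 libraries with Vc. The difference was 1.84 ± 0.31 with the block (adjusted p = 0.0124) and was called with 0824 left out (adjusted p = 0.0298), but not with no block (adjusted p = 1). Against Flag cells with Vc the difference was 1.78 ± 0.34 (adjusted p = 0.00269 with the block). Slc15a3, a lysosomal transporter, and the macrophage genes C1qb, C1qc and Msr1 were 4 others of the 6; none was called without the library 0824. The macrophage sum of that library was 2667 CPM, and its part in these calls was not tested. The last was Ccne1, cyclin E1, at 29.9 and 47.1 CPM at day 3 and 47.0 and 32.9 CPM at day 8, overlapping between the days, against 49.8 and 56.8 CPM and then 35.1 and 22.9 CPM with DMSO (0.94 ± 0.18, adjusted p = 0.0269 with the block, and 0.167 without 0824).

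The day 8 libraries gave unequal results when taken apart. With 0824 alone against both day 3 libraries, 235 genes were higher and 19 lower, including all 24 genes called with both. Of the 235, 123 were less than 2-fold higher within number 0826, and 23 belonged to the macrophage list. Called with 0824 alone and not with both were, for example, Lcp1, an actin-bundling protein of blood cells, at 244 and 4.47 CPM at day 8 against 7.19 and 5.71 CPM at day 3, and Atp1b3, a sodium pump subunit, at 495 and 259 CPM against 196 and 177 CPM. Lcp1 was high in 0824 only, while Atp1b3 was higher than at day 3 in both day 8 libraries. With 0826 alone, 1 gene was higher and 0 lower (edgeR; 832 at an unadjusted p under 0.05). The genes with the largest excess in 0824 at day 8 were macrophage or blood genes: Csf2rb, a cytokine receptor subunit, stood at 96.3 and 0 CPM, C1qb, a complement subunit, at 164 and 0.372 CPM, and Ctss, a lysosomal protease, at 150 and 0.372 CPM. All 3 were high in 0824 only. The largest excesses in 0826 were in Tom1, a trafficking adaptor, at 0 and 16.2 CPM, Nr4a3, a nuclear receptor, at 1.96 and 28.5 CPM, and the matrix genes Lum and Hmcn1, the last at 5.16 and 41.3 CPM. Tom1 stood at 22.2 and 29.7 CPM at day 3, so it was the library 0824 that stood apart in this gene.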

How the data were processed

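RNA-seq was analysed in the 4 Tet1CD libraries with Vc, with 24 others of the series sharing the fit (28 libraries, 14 groups of 2). The deposited values are expected counts per gene, estimated counts that the authors made with Bowtie and RSEM on mm10, per the submitters' processing notes. Tool versions were not stated there. They were rounded to whole numbers. Of 29267 gene IDs, 28756 matched GENCODE M21, and the rest held at most 0.392% of a library's counts. Totals per library ran from 3953297 to 6818060. In R 4.3.3, edgeR 4.0.16 (limma 3.58.1) filtered low counts with filterByExpr, which kept 14914 genes, scaled by TMM and fitted the quasi-likelihood model, with Benjamini-Hochberg adjustment over all genes tested. The common dispersion was 0.0817. Differences within a number used log2 CPM with a prior count of 2. On simulated data for the day contrast, 14% of 100 genes changed 2-fold and 89% of 100 changed 8-fold were recovered, with 2 false calls over 14914 genes. The changed genes were drawn only from those above a minimum level at day 3. Counts were drawn independently, with no deviation shared by number and no excess of macrophage transcripts in a day 8 library.

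Deviations of same-numbered libraries from their group means correlated between groups by 0.345 to 0.687 within day 8 and 0.356 to 0.504 within day 3 (15 pairs of groups each), and by -0.008 to 0.178 across days (36 pairs; 0.113 between Tet1CD Vc day 3 and day 8). With MEF they correlated by -0.01 to 0.305 (12 pairs), the highest with Tet1CD Vc at day 8. The number was therefore taken to pair libraries within a day and not across days. The members and the 37 gene lists were chosen with earlier results of these data known. Named genes were, by rule, 9 fixed genes, up to 4 per list by smallest p, the 12 called higher and all called lower genes of largest change, up to 8 per interaction, up to 8 per direction that differ most between the day 8 libraries and up to 4 called with 1 of them alone. The other called genes were added, and the 8 per interaction were taken in each direction from the fit with the block, since no gene was called with no block; both depart from the rule as first written. Of these 196, not all are described, some genes are not reported here, and genes beyond them were chosen after their values were seen. Alternatives were RLE size factors, no filter, DESeq2 1.42.0, replicate blocks, the contrast's own libraries, macrophage and blood genes left out, and each library left out. The block within each day combined with a left-out day 8 library was added after seeing the data.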

Additional observations from a re-analysis of the deposited data

How the results depend on the processing

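The day contrast called 24 genes, and 21 with RLE size factors, but 211 with no filter on low counts, 233 with DESeq2 and 0 with only the 4 libraries of the contrast. With macrophage and blood genes left out it called 24. None of the left-out genes was among the 24, so this alternative could hardly change the count. It also leaves macrophage RNA of other genes in the data. Leaving out 1 library at a time gave 1 to 254. The replicate block gave 775 calls over 26 libraries and 2721 within each day, and the latter gave 1462 without the day 8 library 0824 and 2978 without 0826; across days the numbers did not pair the libraries. The interaction with DMSO, with 0 calls, gave 2 with DESeq2, 1 with the replicate block over 26 libraries, 23 with the block within each day (6 without the day 8 library 0824 and 717 without 0826) and 0 to 3 with 1 library left out. The interaction with Flag cells with Vc, also with 0 calls, gave 37 with DESeq2, 111 and 1208 with the same blocks (975 and 1520 without these libraries) and 0 to 2 with 1 library left out. The reference of ESC against MEF called 7819 genes and 5746 to 8451 with 1 library left out. Of 2624 values of named genes under the alternatives, 1992 kept direction and side of the threshold, 94 lost and 484 gained a call, 53 moved and 1 reversed: Cd68 stood at -1.23 (log2, adjusted p = 0.0228) with the block within each day and no day 8 library 0824. The cause of these differences was not tested. At this depth and replication, 14% of simulated 2-fold changes were recovered, so smaller changes were mostly not detectable. The simulation changed only genes above a minimum day 3 level and drew counts independently, so it does not cover genes of lower level or deviations shared between libraries.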

Other observations

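Interferon response genes were mostly higher at day 8, with 23 of 29 above 0 within both numbers, against 28.8% of all genes tested. More than 2-fold higher were 8, against 4.48% of all genes tested. Of the list, 0 were called (median log2 fold change 0.98, with 1.14 in the day 8 library 0824 alone and 0.63 in 0826 alone). Their day 3 libraries differed: Oas2, an antiviral synthetase, stood at 104 and 8.56 CPM at day 3 and 124 and 122 CPM at day 8, where only the day 3 library 0826 was low. Irgm1, an interferon-induced GTPase, stood at 38.9 and 24.3 CPM and then at 67.8 and 53.6 CPM, without overlap (adjusted p = 0.239). Hox genes, the patterning factors that fibroblasts keep from their body position, were mostly lower, with 21 of 29 below 0 within both numbers, against 28% of all genes tested, and 0 called (median -0.48, with -0.50 in 0824 alone and -0.72 in 0826 alone). Hoxc6 stood at 51.1 and 53.3 CPM and then at 26.7 and 16.6 CPM (adjusted p = 0.634). Of 12 neural genes 7 were more than 2-fold higher within both numbers, all at low levels, against 4.48% of all genes tested. Called were 0 (median 1.56, with 1.80 in 0824 alone and 1.22 in 0826 alone). Pou3f1, a POU factor, stood at 0.389 and 0 CPM and then at 15.1 and 4.65 CPM (adjusted p = 0.0841), whereas Tubb3, a neuronal tubulin, was lower at 37.3 and 41.4 CPM and then 20.1 and 13.2 CPM (adjusted p = 0.572).

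Of 27 TGF-beta and BMP genes 4 were more than 2-fold higher within both numbers, against 4.48% of all genes tested. These were Nodal, its antagonists Lefty1 and Lefty2, and the matrix protein Tgfbi (list median 0.25, with -0.23 in 0824 alone and 0.50 in 0826 alone). Lefty2 had 0 counts at day 3 and 11.6 and 4.28 CPM at day 8, at least 24.7-fold above the floor (adjusted p = 0.107). Of 26 imprinted genes 4 were more than 2-fold higher and 2 lower, against 4.48% and 1.11% of all genes tested (median -0.09, with -0.33 in 0824 alone and 0.10 in 0826 alone). The noncoding RNA H19 stood at 69.4 and 69.2 CPM and then at 205 and 494 CPM (adjusted p = 0.602), while Plagl1, a zinc finger factor, stood at 102 and 207 CPM and then at 38.3 and 52.1 CPM (adjusted p = 0.0954); neither overlapped. Slc2a1, the glucose transporter GLUT1, stood at 58.9 and 42.1 CPM and then at 273 and 114 CPM (adjusted p = 0.185), among 19 glycolysis genes with a median of 0.18 (0.28 in 0824 alone and 0.07 in 0826 alone) and 25 hypoxia genes with a median of 0.14 (0.11 and 0.20).

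No gene of the remaining lists was called, and the day 8 libraries, taken alone, often gave different medians, written here as 0824 and 0826. The median was 1.60 for 7 adipocyte and chondrocyte genes (0.08 and 1.91 alone), 1.24 for 8 trophoblast genes (1.51 and 0.58) and 0.60 for 16 endothelial genes (0.84 and 0.27). It was 0.82 for 2 mesoderm genes (1.56 and -0.90) and 0.51 for 9 AP-1 factors (-0.14 and 0.79), whose signs differed between the libraries. It was 3.08 for 3 lymphoid genes (0 and 2.74), 0.55 for 6 muscle genes (0.47 and 0.55) and -0.41 for 11 genes of extraembryonic endoderm (-0.79 and -0.11). Between -0.08 and 0.25 lay the medians of 26 integrated and ER stress genes, 22 histone demethylases, 9 vitamin C transport genes, 23 oxidative phosphorylation genes, 22 cholesterol synthesis genes, 5 erythroid genes, 3 two-cell-like genes, 22 Nrf2 targets, 21 lysosome genes and the 4 reprogramming factors. Among these, the lysosome genes were the most unequal (0.52 and -0.18 alone).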
